A study of Homo sapiens with 56 samples.

Results

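Laminin-332 is the adhesive protein of epithelial basement membranes, and the genes described here encode its alpha chain, LAMA3, and beta chain, LAMB3, the integrin chains ITGB4, ITGA6, ITGA2, ITGA3, ITGB1 and ITGB6, and the protease urokinase, PLAU. These 9 genes were chosen by name and matched by symbol to the Ensembl identifiers of the count tables, which hold 17536 genes in all, and every one of the 9 is in both tables. They were chosen with their levels and responses in these libraries already known, so their values are given as a description and carry no test. RNA was sequenced from 7 established lines of human colorectal cancer: SW1417, SKCO1, HT29, SW948, LoVo, DLD1 and HCT116. Each line was treated with 10 mM 2-methylisocitrate (2-MiCit), an intermediate of the bacterial methylcitrate cycle, or with its vehicle, water (control), and each of the 14 groups had 4 libraries. All lines are labelled as wild-type epithelial cells of the colon, and the labels name no further treatment. How long the cells were treated is not stated there. Libraries carry the numbers 1 to 4 in each group, with no word on separate cultures, so a p-value here measures only the spread between libraries, which may be technical.

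Laminin-332 is a basement membrane protein built from several chains, among them an alpha chain encoded by LAMA3 and a beta chain encoded by LAMB3, which epithelial cells secrete and bind. The integrin of ITGA6 and ITGB4 chains anchors cells to it in hemidesmosomes, while the integrin of ITGA3 and ITGB1 chains binds it at focal contacts. Urokinase turns plasminogen into plasmin, a protease that cuts matrix proteins, and in colorectal tumours both the laminin chains and urokinase are known for their expression at the invasive edge.

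Library totals ran from 13.8 to 19.4 M counts for HCT116, DLD1, LoVo and SW948 (the first table) and from 29.1 to 45.4 M for HT29, SKCO1 and SW1417 (the last table), so the same change is measured with less counting error in the last 3. Of 8 epithelial markers, all 8 were above 1 CPM (counts scaled to the library size) in the controls of 6 lines. In HCT116, 6 of 8 were, and KRT20 and VIL1 were below 1 CPM. The summed epithelial markers of HCT116 were 4518 to 5033 CPM in control and 5970 to 7008 CPM with 2-MiCit. The part of this shift in the HCT116 values below was not tested. Endothelial markers summed to less than 2 CPM in every library. Of the leukocyte list, CD14 and LYZ are in the tables, and the sum reached 921 to 1135 CPM in SW948 and 1662 to 1849 CPM in HT29, nearly all of it LYZ. The fibroblast list, 6 genes of which the first table holds 3 and the last holds 2, summed to 22.1 CPM at most. A pair of libraries, DLD1 control 1 and SW948 2-MiCit 2, stood apart from their groups. Slopes of log2 level against transcript length were taken relative to the other libraries of the same line and treatment. In this pair the slopes were -0.283 and -0.234 per doubling of length, against -0.128 to 0.132 in the other 54 libraries. The members' fold changes in DLD1 and SW948 are therefore given with and without them, while control levels of DLD1 include control 1. In bulk samples, fewer cells of a type and less RNA per cell cannot be told apart.

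The control level of LAMA3, the alpha chain, spanned more of a range between lines than that of LAMB3. LAMA3 (ENSG00000053747, chr18:23689443-23956222 on the plus strand, GRCh38) was at 580.4 ± 8.45 CPM (SD, n = 4, as for every level below) in SW1417. SKCO1 followed at 48.9 ± 2.38 CPM, DLD1 at 37.0 ± 11.3, HT29 at 36.1 ± 1.94, SW948 at 28.4 ± 3.78, LoVo at 22.6 ± 2.26 and HCT116 at 6.86 ± 1.65 CPM. SW1417 thus held 84.6 times the LAMA3 level of HCT116, a ratio set across tables that were made separately, as are all orders of lines given here. In that order DLD1 overlapped HT29 and SW948 overlapped LoVo, while the other neighbours did not overlap. LAMA3 has a long transcript of 10661 bases (LAMA3-202) and a short one of 5671 bases (LAMA3-201), and the gene counts do not separate them.

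LAMB3 (ENSG00000196878, chr1:209614870-209652466, minus strand), the beta chain of laminin-332, was highest in HT29 at 249.97 ± 10.1 CPM. The other lines held 167 ± 2.08 CPM (SKCO1), 119 ± 12.9 (DLD1), 80.7 ± 3.38 (HCT116), 77.7 ± 1.66 (SW1417), 63.1 ± 1.23 (LoVo) and 33.2 ± 1.43 CPM (SW948), and only HCT116 and SW1417 overlapped as neighbours. Per kilobase of transcript, which allows chains to be compared, the control levels of LAMA3 (short transcript) and LAMB3 were 102 and 18.0 CPM per kb in SW1417. The order was reversed in HT29, with 6.37 and 58.1 CPM per kb, and in HCT116, with 1.21 and 18.7. On this scale LAMA3 was the more abundant of the pair in SW1417 and the less abundant in the other 6 lines.

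Among the receptor chains, ITGB1 and ITGA6 were abundant in every line and ITGB6 was not. ITGB1 (ENSG00000150093, chr10:32900319-33005792, minus strand), the beta chain shared by most matrix-binding integrins, ranged from 306 ± 14.5 CPM in SW948 to 812 ± 28.4 CPM in HT29, a ratio of 2.65. ITGA2 (ENSG00000164171, chr5:52989326-53094779, plus strand), the alpha chain of a collagen and laminin receptor, had a similar ratio of 2.75, from 34.4 ± 1.65 CPM in SKCO1 to 94.3 ± 9.81 CPM in HT29. ITGA6 (ENSG00000091409, chr2:172427354-172506282, plus strand) ranged from 199 ± 25.0 CPM in HCT116 to 964 ± 33.0 CPM in SW948. Its partner ITGB4 (ENSG00000132470, chr17:75721328-75757818, plus strand) ranged from 109.6 ± 26.3 CPM in DLD1 to 1113 ± 47.6 CPM in SW1417. The pair did not share an order of lines: SW948 was first for ITGA6 and the fifth for ITGB4. ITGA3 (ENSG00000005884, chr17:50055968-50090481, plus strand) was highest in SKCO1 at 330.0 ± 9.52 CPM and lowest in LoVo at 35.2 ± 2.44 CPM.

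ITGB6 (ENSG00000115221, chr2:160099666-160200313, minus strand), an epithelial beta chain that binds latent TGF-beta, divided the lines. It was at 50.2 ± 0.783 CPM in HT29, 44.7 ± 2.11 in SW1417, 27.4 ± 1.08 in SW948 and 21.8 ± 1.17 in SKCO1, then at 4.66 ± 0.881 in LoVo, 1.11 ± 0.429 in DLD1 and 0.0571 ± 0.0665 CPM in HCT116, where the 4 control libraries held 0, 2, 0 and 2 counts. No neighbours in this order overlapped. PLAU (ENSG00000122861, chr10:73909177-73917497, plus strand) was highest in SKCO1 at 74.2 ± 2.14 CPM, followed by HCT116 at 58.2 ± 3.83, SW1417 at 31.9 ± 2.39, LoVo at 8.71 ± 1.10, DLD1 at 3.06 ± 0.54, SW948 at 0.698 ± 0.376 and HT29 at 0.333 ± 0.145 CPM. HCT116, last for ITGB6 and LAMA3, was thus second to SKCO1 for PLAU, and HT29, first for LAMB3 and ITGB6, had the lowest mean for it. SW948 and HT29 overlapped for PLAU, and the other neighbours in its order did not. Per kilobase of the longest transcript, ITGB1 led the 9 genes in HCT116, DLD1, HT29 and SKCO1, ITGA6 in LoVo and SW948, and ITGB4 in SW1417, at 188 ± 8.04 CPM per kb.

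**Figure D1:**
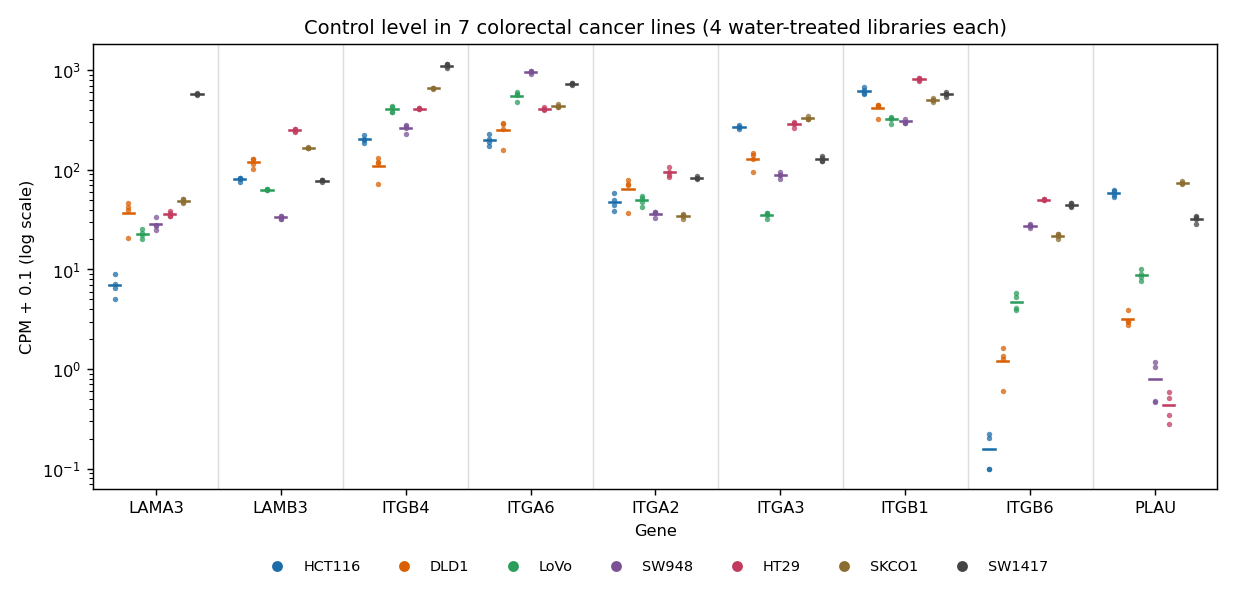
Control level of the 9 genes in 7 lines, in CPM plus 0.1 on a log axis, with points for the 4 water-treated libraries of each line and a bar for their mean. LAMA3 in SW1417 stands far above the other 6 lines, and ITGB6 and PLAU cover the widest range of levels.

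With 2-MiCit, most of the 9 genes rose in HCT116, and most of those called in SKCO1 and SW1417 fell. A gene was called when its edgeR adjusted p, taken over all genes tested in the line, was below 0.05. In HCT116, 6 of the 8 tested members were called higher and 0 lower, where 37% of all 13834 genes tested were called, 19% higher and 18% lower. DLD1 had 1 of 9 called higher (LAMB3, with 0.148% of all genes called higher and 0% lower), LoVo 1 of 9 (LAMB3, with 2.3% of all genes called, 1.59% higher and 0.702% lower) and SW948 0 of 8 (0% of all genes in either direction). In SW948, 0 members had an unadjusted p below 0.05 by edgeR, beside 479 higher and 409 lower of all 13334 genes, and DESeq2 called 0. Without 2-MiCit 2, edgeR called 0 of 9 there. At an unadjusted p below 0.05, 0 were then higher and 1 lower, beside 322 and 392 of all 13452 genes. Without DLD1 control 1, 1 of 9 was called higher in DLD1, beside 1.19% of all genes higher and 0.146% lower. HT29 had 1 higher and 2 lower of 9, beside 7.67% of all genes called, 4.65% higher and 3.02% lower. SKCO1 had 1 higher and 5 lower of 9, beside 18.9% of all genes called, 8.1% higher and 10.8% lower. SW1417 had 0 higher and 4 lower of 9, beside 6.98% of all genes called, 2.94% higher and 4.05% lower. Nothing is read from these shares, since the members were chosen with this contrast known. The tested members had a median log2 fold change of 0.44 in HCT116, then of 0.34 in DLD1 (0.18 without control 1) and 0.16 in LoVo. The median was -0.16 in SW948 (-0.11 over 9 members without 2-MiCit 2), -0.10 in HT29, -0.15 in SKCO1 and -0.06 in SW1417, while the median over all genes lay between -0.002 and 0.027 in every line. In HCT116 the replicate numbers of control and 2-MiCit libraries paired them, and with the number as a replicate block 8 of 8 tested members were called higher, ITGA6 and ITGA2 being added. All genes called with that block were 26.6% higher and 24.2% lower.

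**Figure D2:**
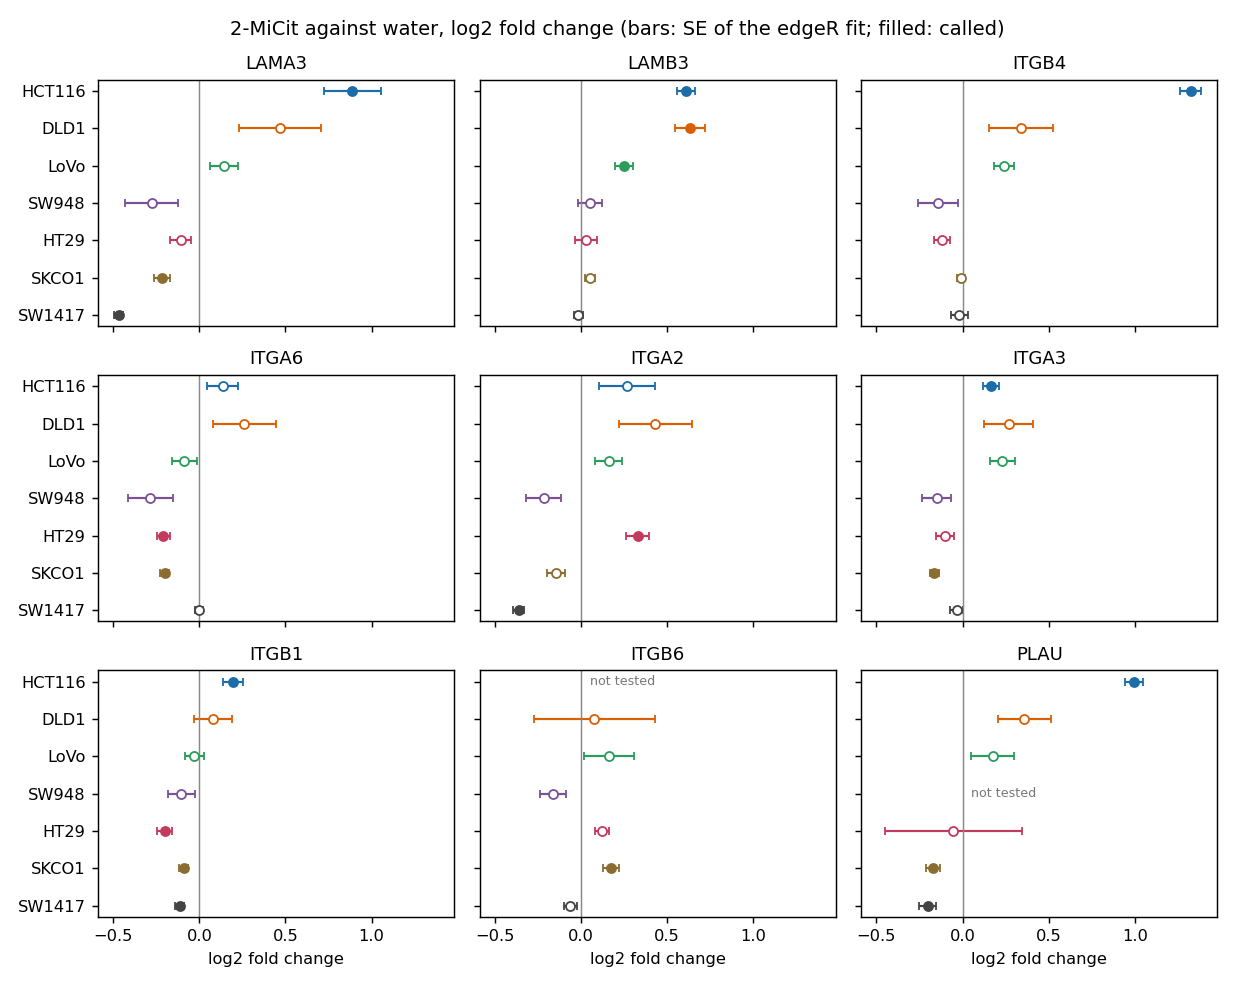
Log2 fold change of 2-MiCit over water for each gene in each line, with bars for the standard error of the edgeR fit and filled points for called genes. ITGB4, PLAU and LAMA3 in HCT116 have the largest values, and LAMA3 in SW1417 the lowest.

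LAMA3 was higher with 2-MiCit in the line where it was lowest and lower in the line where it was highest. In HCT116 the control libraries held 5.00, 7.06, 6.40 and 8.98 CPM (libraries 1 to 4, in this order here and below) and the 2-MiCit libraries 11.5, 12.5, 12.1 and 15.5 CPM. The groups did not overlap, and the log2 fold change was 0.89 ± 0.16 (SE). In SW1417 the controls held 582, 580.2, 569 and 589.8 CPM and the treated libraries 431, 426, 422 and 404 CPM, a log2 change of -0.47 ± 0.02. Every treated library lay below every control there, as in SKCO1, where 47.5, 51.3, 50.6 and 46.4 CPM became 42.1, 45.3, 39.4 and 40.8 CPM (-0.22 ± 0.05). These 3 calls held without any 1 library. LAMA3 was not called in the other 4 lines. In DLD1 the groups overlapped, at 20.7, 39.0, 46.2 and 42.3 CPM in control and 64.0, 50.7, 39.3 and 51.1 CPM with 2-MiCit, and the log2 change was 0.47 ± 0.24 with all libraries and 0.27 ± 0.15 without control 1. The values were 0.14 ± 0.08 in LoVo, -0.11 ± 0.06 in HT29 and -0.28 ± 0.15 in SW948, the last becoming -0.15 ± 0.10 without 2-MiCit 2.

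LAMB3 was called higher in 3 lines of the first table and lower in none of the 7. In HCT116 its controls held 76.1, 82.6, 80.2 and 83.8 CPM and its treated libraries 117, 125, 126 and 132 CPM, a log2 change of 0.61 ± 0.05 that was called without any 1 library. In DLD1 the levels were 102, 115, 129 and 128 CPM in control and 192, 178, 187 and 179.9 CPM with 2-MiCit. In both lines the lowest treated library lay above the highest control. The DLD1 change was 0.63 ± 0.09, and it was 0.57 ± 0.06 and still called without control 1, the library that stood apart. Leaving out any other 1 of the 8 DLD1 libraries (control 2, 3 or 4, or 2-MiCit 1, 2, 3 or 4) ended the call, with the change between 0.57 and 0.68 over all 8. In LoVo 62.0, 62.2, 64.6 and 63.7 CPM became 75.7, 74.6, 79.5 and 73.3 CPM, without overlap, a log2 change of 0.25 ± 0.05. That call was lost without control 2 or 3 or without 2-MiCit 1, 2, 3 or 4, with the change between 0.23 and 0.27. In the other 4 lines the groups overlapped and the log2 changes were 0.05 ± 0.07 (SW948, and 0.06 ± 0.07 without 2-MiCit 2), 0.03 ± 0.06 (HT29), 0.05 ± 0.03 (SKCO1) and -0.01 ± 0.03 (SW1417).

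The start regions of LAMA3 and LAMB3 are shown because both genes were higher in HCT116 and because both, unlike the other matched members, hold a match to the AP-1 motif there. AP-1 factors of the FOS and JUN families bind TGANTCA. RefSeq promoter windows (GRCh38.p14, 250 bases before each start) matched 7 of the 9 members with 12 windows, and ITGB4 and ITGA3 had no entry. Among them, LAMA3 and LAMB3 held the motif on either strand, in 2 of 12 windows, against 6.57% of all 35116 windows. The LAMB3 stretch lies at chr1:209651395-209651624 on the minus strand, from 250 to 21 bases before a start. The further LAMB3 windows hold no match. The only LAMA3 window lies before a start inside the gene, and none covers the 5′ end of the gene at chr18:23689443. The LAMA3 matches lie 125 and 69 bases before that inner start, in the annotated 5′ UTR of transcript LAMA3-201. They are within chr18:23872885-23872911 and chr18:23872941-23872967 on the plus strand. Each is printed 5′ to 3′ with the motif in capitals. A match is a description of the letters and not a binding site.
LAMB3: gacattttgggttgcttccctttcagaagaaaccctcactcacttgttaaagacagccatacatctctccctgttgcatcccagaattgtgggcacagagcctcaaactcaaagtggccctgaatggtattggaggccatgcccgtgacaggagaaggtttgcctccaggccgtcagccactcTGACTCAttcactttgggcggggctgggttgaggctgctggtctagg
LAMA3, first match: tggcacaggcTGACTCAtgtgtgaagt
LAMA3, last match: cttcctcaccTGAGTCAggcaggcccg

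ITGB4 had the largest change of the 9 genes, and with all libraries edgeR called it in HCT116 alone. ITGB4 is the long-tailed beta chain that links laminin to the keratin network. Its HCT116 controls held 186, 203, 222 and 200.1 CPM and its treated libraries 487, 542, 510.2 and 524 CPM. The lowest treated library was thus more than 2 times the highest control, and the log2 change was 1.33 ± 0.06, a 2.51-fold higher level. In LoVo the groups did not overlap either, at 429, 438, 384 and 378 CPM against 485, 507, 464 and 486 CPM. The LoVo change of 0.24 ± 0.06 was not called by edgeR but was called by DESeq2, and by edgeR without control 1 (0.26 ± 0.06). DLD1 gave 0.34 ± 0.19 with all libraries and 0.18 ± 0.11 without control 1. In the other lines the groups overlapped, with log2 changes of -0.14 ± 0.11 in SW948 (-0.04 ± 0.07 without 2-MiCit 2), -0.12 ± 0.05 in HT29, -0.01 ± 0.02 in SKCO1 and -0.02 ± 0.05 in SW1417. Without HT29 2-MiCit 4, ITGB4 was called lower in HT29 (-0.17 ± 0.04).

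ITGA6, the partner chain of ITGB4, did not share its response. In HCT116 it went from 172, 205, 189 and 231 CPM to 207, 235, 203 and 242 CPM, with overlapping groups and a log2 change of 0.14 ± 0.09 that was called only with the replicate block (0.14 ± 0.04). It fell in HT29 from 432, 402, 408 and 407 CPM to 360.5, 342, 359 and 362 CPM (-0.21 ± 0.04). It fell also in SKCO1, from 437, 454, 429 and 428 CPM to 368, 398, 372 and 372 CPM (-0.20 ± 0.03). Groups did not overlap in HT29 or SKCO1, and both calls held without any 1 library. In SW948, where ITGA6 was highest, control libraries were at 984, 996, 921 and 957 CPM and treated ones at 852, 566, 914 and 840.0 CPM. They did not overlap, and the lowest value belongs to 2-MiCit 2, the library that stood apart. The change there was -0.28 ± 0.13 with it and -0.16 ± 0.06 without it, and it was called in neither case. LoVo (-0.09 ± 0.07), SW1417 (-0.00 ± 0.02) and DLD1 (0.26 ± 0.18, and 0.10 ± 0.08 without control 1) had overlapping groups.

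ITGA2 was called in opposite directions in 2 lines of the same table. In HT29 it was at 94.8, 108, 89.7 and 85.1 CPM in control and 115, 128, 117 and 113 CPM with 2-MiCit (0.33 ± 0.07). In SW1417 it was at 81.9, 86.8, 80.6 and 82.3 CPM in control and 67.3, 65.7, 64.2 and 62.0 CPM with 2-MiCit (-0.36 ± 0.03). Neither line's groups overlapped. The HT29 call was lost without control 1, control 3 or 2-MiCit 3, with the change between 0.28 and 0.40, and the SW1417 call held without any 1 library. In the remaining lines the log2 changes were 0.27 ± 0.16 in HCT116 (0.27 ± 0.07 and called with the replicate block), 0.43 ± 0.21 in DLD1 (0.25 ± 0.10 without control 1), 0.16 ± 0.08 in LoVo, -0.22 ± 0.10 in SW948 (-0.13 ± 0.07 without 2-MiCit 2) and -0.15 ± 0.05 in SKCO1, all with overlapping groups. In SKCO1 it was called lower without control 3, 2-MiCit 1 or 2-MiCit 2 (-0.18 in each case).

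ITGA3 and ITGB1, the chains of the focal-contact laminin receptor, had changes below 0.3 on the log2 scale in every line. ITGA3 rose in HCT116 from 259, 282, 270.4 and 271 CPM to 290.0, 311, 311 and 318 CPM (0.17 ± 0.05), and the call was lost without 2-MiCit 2 (0.16 ± 0.06) or 2-MiCit 4 (0.15 ± 0.05). It fell in SKCO1 from 328, 324, 344 and 324 CPM to 283, 288, 304 and 295 CPM (-0.16 ± 0.03), a call that held without any 1 library. Neither pair of groups overlapped. The remaining changes were 0.27 ± 0.14 in DLD1 (0.15 ± 0.09 without control 1), 0.23 ± 0.07 in LoVo, -0.15 ± 0.08 in SW948 (-0.11 ± 0.08 without 2-MiCit 2), -0.10 ± 0.05 in HT29 and -0.03 ± 0.04 in SW1417. LoVo alone among these had groups that did not overlap, at 31.7 to 36.9 CPM in control and 37.9 to 44.97 CPM with 2-MiCit.

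ITGB1 was called in more lines than any other of the 9 genes. It rose in HCT116, where 572, 638, 594 and 673 CPM became 693, 725, 698 and 762 CPM (0.20 ± 0.06). It fell in HT29, where 835, 780.2, 837 and 795 CPM became 747, 656, 712 and 703 CPM (-0.20 ± 0.04). It fell too in SKCO1, from 504 ± 19.7 to 470.2 ± 7.68 CPM (-0.09 ± 0.03), and in SW1417, from 573 ± 22.2 to 531 ± 5.15 CPM (-0.11 ± 0.02). The groups did not overlap in any of these 4 lines, although each change was less than 1.2-fold. The SW1417 call held without any 1 library. The HCT116 call was lost without control 1, 2 or 3 or 2-MiCit 2 or 4 (0.16 to 0.24), the HT29 call without control 1 or 3 (-0.23 to -0.17) and the SKCO1 call without control 1, 2 or 3 or 2-MiCit 4 (-0.11 to -0.06). Changes in DLD1 (0.08 ± 0.11, and -0.02 ± 0.06 without control 1), LoVo (-0.03 ± 0.06) and SW948 (-0.11 ± 0.08, and -0.04 ± 0.05 without 2-MiCit 2) were not called.

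ITGB6 was called in 1 of the 6 lines in which it was tested. It was higher in SKCO1, from 21.5, 22.6, 20.3 and 22.8 CPM to 22.6, 25.5, 24.9 and 24.8 CPM (0.17 ± 0.05), with overlapping groups. That call was lost without control 1 or 3 or 2-MiCit 2 or 4, with the change between 0.14 and 0.20. HT29 groups did not overlap, at 49.4 to 51.0 CPM against 52.2 to 56.6 CPM (0.12 ± 0.04), and the gene was called there only without 2-MiCit 2 (0.14 ± 0.04) or with the replicate block. In HCT116 the filter on low counts left it out of the test: the treated libraries held 5, 9, 5 and 5 counts and the controls 0, 2, 0 and 2. The other changes were 0.08 ± 0.35 in DLD1 (0.10 ± 0.38 without control 1), 0.16 ± 0.15 in LoVo, -0.16 ± 0.08 in SW948 (-0.11 ± 0.06 without 2-MiCit 2) and -0.06 ± 0.04 in SW1417.

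PLAU was 1.99-fold higher with 2-MiCit in HCT116 and was called lower in SKCO1 and SW1417, the other lines with a control level above 10 CPM. Its HCT116 controls held 60.7, 62.1, 53.9 and 56.2 CPM and its treated libraries 119, 117, 120.0 and 115 CPM, a log2 change of 1.00 ± 0.05. In SKCO1 it fell from 72.1, 73.4, 77.1 and 74.2 CPM to 60.1, 64.0, 69.9 and 67.8 CPM (-0.17 ± 0.04). In SW1417 it fell from 34.1, 33.2, 31.7 and 28.6 CPM to 26.7, 28.2, 27.9 and 28.4 CPM (-0.20 ± 0.05). None of these groups overlapped, though the highest treated and lowest control library of SW1417 lay close together. The HCT116 and SKCO1 calls held without any 1 library, and the SW1417 call was lost without control 1, 2 or 3 or 2-MiCit 1, 2 or 3, with the change between -0.25 and -0.17. In DLD1, at 2.66 to 3.86 CPM in control and 3.73 to 4.06 CPM with 2-MiCit, the change was 0.36 ± 0.16 (0.34 ± 0.17 without control 1), and in LoVo it was 0.18 ± 0.13. HT29 libraries held 5 to 17 PLAU counts, and its change of -0.05 ± 0.40 is not resolved at this depth. SW948 held 6 to 18 counts per library and was not tested with all libraries. Without 2-MiCit 2 the gene passed the filter there, with a change of -0.41 ± 0.45 that was not called.

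**Figure D3:**
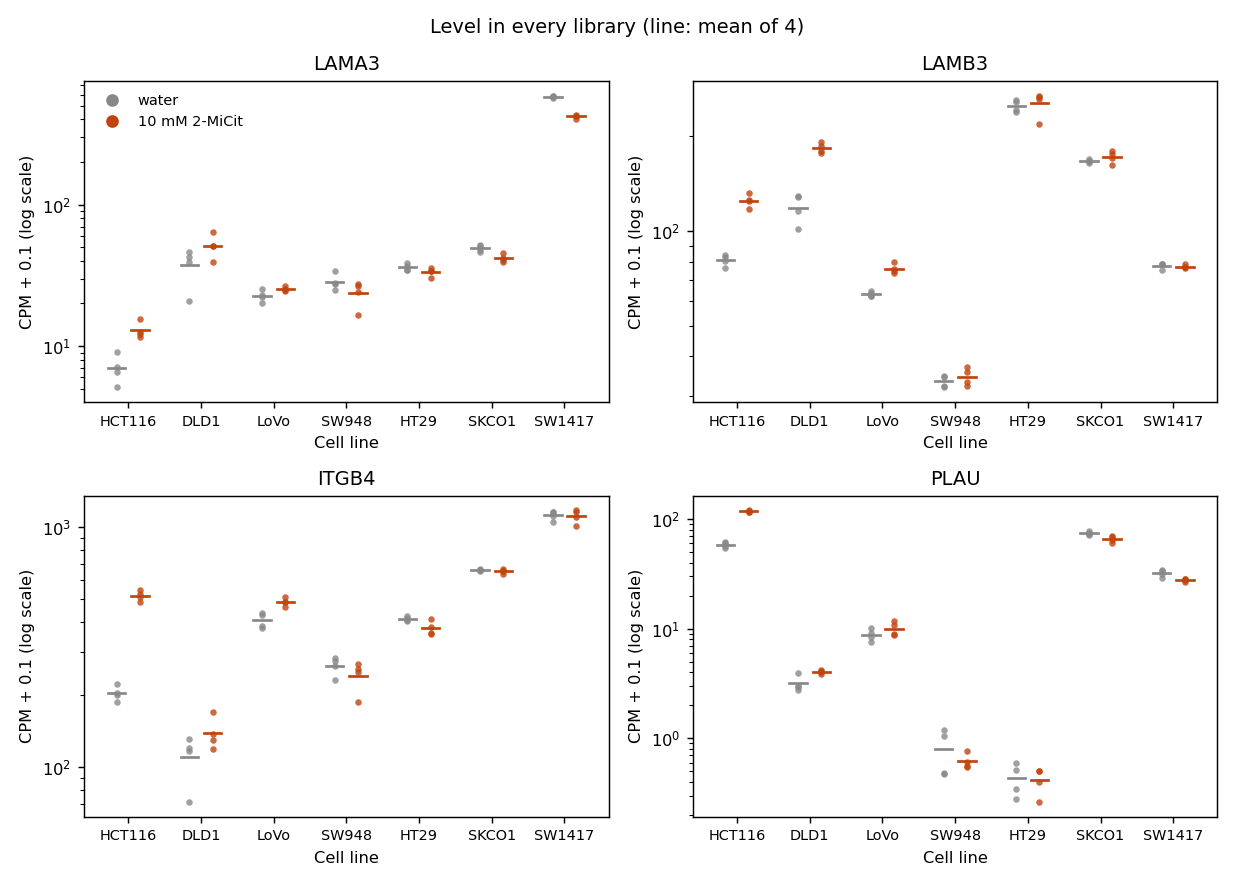
Level of LAMA3, LAMB3, ITGB4 and PLAU in each of the 56 libraries, in CPM plus 0.1 on log axes that differ between panels, with a bar for the mean of 4. HCT116 is the line in which all 4 genes separate the 2-MiCit from the water libraries in the higher direction.

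The start region of PLAU is shown for comparison, since PLAU was also higher in HCT116 and had no AP-1 match in its 2 windows. Only the 250 bases before each start were searched, so a match further away would not be seen. The printed stretch lies at chr10:73910882-73911103 on the plus strand (GRCh38.p14, RefSeq), from 250 to 29 bases before a start. Capitals mark GGGCGG, the box that SP1 binds, which it holds 3 times. GGGCGG, searched on both strands, was in a window of 6 of the 7 matched members and in 42.64% of all windows. GGAATG, bound by TEAD factors, was found in 1 member (ITGB1) and in 11.89% of all windows, and the searched CRE, C/EBP-ATF, SMAD and FOX motifs (TGACGTCA, TGATGNAA, GTCTAGAC and TGTTTAC) were in 0 members and in 1.65%, 3.14%, 0.18% and 2.98% of windows.
PLAU: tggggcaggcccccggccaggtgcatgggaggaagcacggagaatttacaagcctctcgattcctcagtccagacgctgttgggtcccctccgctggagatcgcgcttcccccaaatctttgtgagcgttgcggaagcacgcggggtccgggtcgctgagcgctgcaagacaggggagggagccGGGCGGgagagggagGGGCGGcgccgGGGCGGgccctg

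Across libraries, the 9 genes varied together to different degrees. Each gene's log2 level was centred on the control mean of its line, and the 36 pairs of members had Pearson r from 0.29 (ITGA6 with ITGB6) to 0.85 (LAMA3 with ITGB4, and ITGA6 with ITGB1) over 56 libraries, with a median of 0.63. Libraries of 1 line share a centring mean, a treatment and a depth range, so r is a description. Without DLD1 control 1 and SW948 2-MiCit 2 the median was 0.58, and without the HCT116 libraries as well it was 0.365, with a range from -0.05 to 0.83. LAMA3 with ITGB4 was then 0.60, ITGA6 with ITGB1 0.69, and ITGB4 with PLAU fell from 0.80 to 0.34. Likeness to LAMB3 and PLAU was then ranked among the 11319 genes tested in all 7 lines. Members, marker genes, the adhesion and protease lists below and genes without a symbol were left out of this ranking. Of the genes ranked, the most like LAMB3 over the 56 libraries included TES (r = 0.90), SMG5 (0.894) and CYTH3 (0.89). Those most like PLAU were KRT80 (0.865), STK38 (0.85), DCAF10 (0.84) and TRAPPC6B (0.838). Without the same pair of libraries and HCT116, the LAMB3 values were 0.796 to 0.822 and the PLAU values 0.516 to 0.658.

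Other genes of adhesion and matrix proteolysis were taken from 9 lists, of which 96 genes are in the tables. These lists too were chosen with earlier results of these data known. From each list, the genes named below were mainly those called in the most lines, ties by the smallest p. Their adjusted p-values, within and between lines, are therefore not independent of that choice. In a line not named for a gene below, the gene was not called or not tested, and some uncalled changes were as large as called ones. In HCT116 34 of 80 tested were higher and 5 lower (42.5% and 6.2%, beside the 19% and 18% of all genes), and with the replicate block 43 and 9, beside 26.6% and 24.2% of all genes under the same block. Their median log2 change was 0.20, and that of all genes 0.03. In SKCO1 7 of 82 were higher and 25 lower (8.5% and 30.5%, beside 8.1% and 10.8% of all genes). LoVo had 7 higher and 0 lower of 81 (8.6% and 0%, beside 1.59% and 0.702% of all genes). HT29 had 5 and 2 of 74 (6.8% and 2.7%, beside 4.65% and 3.02%). SW1417 had 2 and 6 of 81 (2.5% and 7.4%, beside 2.94% and 4.05%). In DLD1 0 of 82 were called by edgeR in either direction, beside 0.148% of all genes higher and 0% lower. At an unadjusted p below 0.05, 12 were higher there and 0 lower, beside 1227 and 1171 of all 13551 genes. DESeq2 called 3 higher and 0 lower, beside 324 and 150 of all genes. Without DLD1 control 1, edgeR called 1 higher (1.22%, beside 1.19% of all genes). In SW948 0 of 72 were called by edgeR and by DESeq2. There 0 were higher and 6 lower at an unadjusted p below 0.05, beside 479 and 409 of all 13334 genes. Without SW948 2-MiCit 2, edgeR called 0 of 72 there. At an unadjusted p below 0.05, 0 were then higher and 8 lower, beside 322 and 392 of all 13452 genes. The lists overlap in function with the 9 genes, and nothing particular to them is read from these counts.

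Among the other laminin chains, 3 of 8 rose and 1 fell in HCT116 (37.5% and 12.5%, beside 19% and 18% of all genes). Those that rose included LAMB2, a beta chain of other basement membrane laminins, and LAMA5, the alpha chain of laminin-511. LAMB2 went from 59.7 ± 7.37 to 90.4 ± 10.3 CPM (0.58 ± 0.11, adjusted p = 0.00191), and LAMA5 from 182 ± 26.2 to 284 ± 35.7 CPM (0.62 ± 0.12, adjusted p = 0.00349). LAMB2 was called higher in SKCO1 too (0.23 ± 0.02, adjusted p = 3.58e-05) and LAMA5 in LoVo (0.40 ± 0.08, adjusted p = 0.0393). The LAMB2 groups did not overlap either in LoVo (0.42 ± 0.11), DLD1 (0.30 ± 0.10) and HT29 (0.21 ± 0.07), where it was not called. In SW948 (0.08 ± 0.13) and SW1417 (0.00 ± 0.05) they overlapped. LAMA5 was not called in DLD1 (0.55 ± 0.17, with overlapping groups).

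Of the integrin chains outside the chosen set, 1 of 9 alpha chains (11.1%) and both tested beta chains rose in HCT116, where 19% of all genes rose. ITGB8, a beta chain that like ITGB6 binds latent TGF-beta, rose in HCT116 from 13.2 ± 1.09 to 27.9 ± 3.29 CPM (1.06 ± 0.10, adjusted p = 5.18e-05) and in LoVo from 5.60 ± 0.707 to 9.31 ± 1.06 CPM (0.72 ± 0.12, adjusted p = 0.0192). ITGB5, a vitronectin receptor chain, rose in HCT116 (0.59 ± 0.05, adjusted p = 2.51e-05) and fell slightly in SKCO1 (-0.08 ± 0.03, adjusted p = 0.0468, with overlapping groups). ITGA1, a collagen receptor chain, rose in HT29 (0.29 ± 0.05, adjusted p = 0.00499). ITGAX, a leukocyte integrin chain, was called higher in HCT116 at 0.443 ± 0.137 and 0.872 ± 0.324 CPM (0.97 ± 0.35, adjusted p = 0.0497), a level close to the filter.

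Of 7 hemidesmosome genes and other laminin receptors, 3 rose and 1 fell in HCT116 (42.9% and 14.3%, beside 19% and 18% of all genes). COL17A1, the transmembrane collagen of hemidesmosomes, rose from 1.31 ± 0.541 to 2.93 ± 0.336 CPM (1.14 ± 0.27, adjusted p = 0.00791) and fell in SKCO1 from 199 ± 5.21 to 181 ± 8.05 CPM (-0.13 ± 0.03, adjusted p = 0.00545). BCAM, a receptor for laminin alpha5, rose in HCT116 from 34.0 ± 5.01 to 59.3 ± 7.13 CPM (0.78 ± 0.12, adjusted p = 0.000712). CD151, the tetraspanin that partners laminin-binding integrins, moved the other way. It fell in HCT116 (-0.21 ± 0.06, adjusted p = 0.02) and in SKCO1 (-0.11 ± 0.03, adjusted p = 0.0094).

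Of 20 linkers between integrins and actin, 8 rose and 1 fell in HCT116 (40% and 5%, beside 19% and 18% of all genes). In SKCO1 1 rose and 9 fell (5% and 45%, beside 8.1% and 10.8% of all genes). TNS3, a tensin that binds integrin tails, rose in 4 lines: HCT116 (0.78 ± 0.12, adjusted p = 0.000798), LoVo (0.30 ± 0.05, adjusted p = 0.0201), HT29 (0.30 ± 0.06, adjusted p = 0.0186) and SKCO1 (0.11 ± 0.03, adjusted p = 0.0335). FLNA, the actin cross-linker filamin A, fell in all 3 lines of the last table, by 0.37 ± 0.05 on the log2 scale in HT29, 0.15 ± 0.03 in SKCO1 and 0.16 ± 0.02 in SW1417 (adjusted p = 0.0015, 0.000887 and 0.00133). Its SKCO1 level went from 3454 ± 38.6 to 3091 ± 45.9 CPM. PARVA, which joins integrin-linked kinase to actin, rose in HCT116 (0.73 ± 0.07, adjusted p = 6.26e-05) and fell in SKCO1 (-0.09 ± 0.03, adjusted p = 0.0263).

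In the plasminogen system 4 of 10 genes rose and 0 fell in HCT116 (40% and 0%, beside 19% and 18% of all genes). In SKCO1 1 of 12 rose and 5 fell (8.3% and 41.7%, beside 8.1% and 10.8% of all genes). PLAUR, the urokinase receptor, which was picked here for its role and outside the rule for named genes, was not called in HCT116 (-0.22 ± 0.08, adjusted p = 0.0619). It fell in SKCO1 (-0.26 ± 0.03, adjusted p = 0.000132) and in SW1417, from 71.1 to 52.4 CPM (-0.44 ± 0.04, adjusted p = 1.5e-05). ANXA2, a cell-surface assembly site for plasminogen and its activators, fell in HT29, SKCO1 and SW1417, by 0.14 ± 0.03, 0.17 ± 0.03 and 0.21 ± 0.02 on the log2 scale (adjusted p = 0.0279, 0.000962 and 2.43e-05). LRP1, an endocytic receptor for many ligands, rose in HCT116 (0.47 ± 0.13, adjusted p = 0.0181), LoVo (0.61 ± 0.11, adjusted p = 0.0207) and SKCO1 (0.41 ± 0.07, adjusted p = 0.000668).

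**Figure D4:**
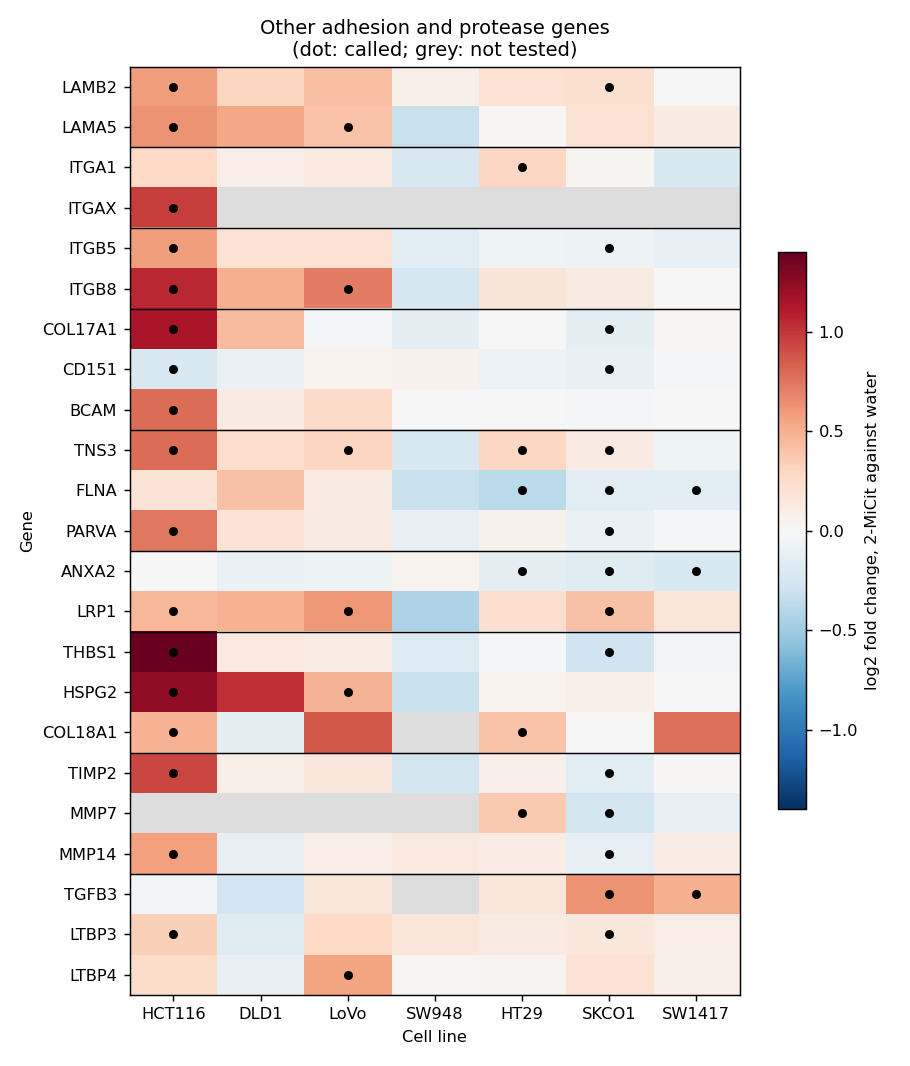
Log2 fold change of 2-MiCit over water for the 23 named genes of the adhesion and protease lists (rows, ruled off by list) in the 7 lines (columns), with a dot where the gene was called and grey where it was not tested. HCT116 holds more of the red cells with dots than any other line, and SKCO1 more of the blue ones.

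Of the basement membrane and ligand genes, 5 of 9 rose and 1 fell in HCT116 (55.6% and 11.1%, beside 19% and 18% of all genes). In SKCO1 0 of 8 rose and 2 fell (0% and 25%, beside 8.1% and 10.8% of all genes). THBS1, a matrix glycoprotein bound by several integrins, rose in HCT116 from 41.4 ± 4.53 to 109.7 ± 9.94 CPM (1.38 ± 0.09, adjusted p = 9.97e-06) and fell in SKCO1 (-0.28 ± 0.03, adjusted p = 4.01e-05). HSPG2, the proteoglycan perlecan, rose in HCT116 from 23.8 ± 2.10 to 57.0 ± 9.12 CPM (1.24 ± 0.11, adjusted p = 4.32e-05) and in LoVo (0.47 ± 0.10, adjusted p = 0.037). It was not called in DLD1, where the change ran from 0.77 to 1.19 with 1 library left out. Its change was above 0 in 5 of 7 lines. COL18A1, a basement membrane collagen, rose in HCT116 (0.48 ± 0.05, adjusted p = 8.32e-05) and HT29 (0.40 ± 0.06, adjusted p = 0.00361). It was not called in LoVo (0.68 to 1.14 with 1 library left out) or SW1417 (0.61 to 0.97). The change of COL18A1 was above 0 in 5 of the 6 lines tested. Matrix proteases and their inhibitors had 6 of 8 higher in HCT116 (75%, beside 19% of all genes) and 4 of 10 lower in SKCO1 (40%, beside 10.8%). TIMP2, a metalloprotease inhibitor, rose in HCT116 from 151 ± 4.42 to 293 ± 7.19 CPM (0.94 ± 0.04, adjusted p = 1.71e-06) and fell in SKCO1 (-0.16 ± 0.03, adjusted p = 0.0022). MMP14, a membrane-bound protease that cleaves laminin-332, rose in HCT116 (0.57 ± 0.10, adjusted p = 0.00138) and fell in SKCO1 (-0.12 ± 0.02, adjusted p = 0.00186). MMP7, the matrilysin of epithelial tumours, rose in HT29 from 82.9 ± 2.60 to 107 ± 3.95 CPM (0.37 ± 0.04, adjusted p = 0.000738) and fell in SKCO1 (-0.26 ± 0.08, adjusted p = 0.0343, with overlapping groups). Of the 7 genes of latent TGF-beta, 2 rose and 1 fell in HCT116 (28.6% and 14.3%, beside 19% and 18% of all genes). In LoVo 1 rose (14.3%, beside 1.59%), and 2 rose in SKCO1 and in SW1417 (28.6% in each, beside 8.1% and 2.94%). The gene that fell was TGFB1, a TGF-beta ligand named here outside the rule, after its values were seen, at 59.7 ± 3.06 CPM in control and 41.8 ± 3.14 CPM with 2-MiCit (-0.53 ± 0.07, adjusted p = 0.000276). TGFB3 rose in SKCO1 (0.63 ± 0.15, adjusted p = 0.00759) and SW1417 (0.50 ± 0.13, adjusted p = 0.028). Among genes of latent TGF-beta binding proteins, LTBP3 was called higher in HCT116 (0.33 ± 0.10, adjusted p = 0.0244) and SKCO1 (0.14 ± 0.03, adjusted p = 0.00848). LTBP4 was called higher in LoVo (0.55 ± 0.07, adjusted p = 0.00497).

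Of the 47 calls of named list genes, 31 held without any 1 library and 27 under every alternative of the processing. With 1 edgeR fit per table, calls lost in SKCO1 included COL17A1 (adjusted p = 0.0688), LRP1 (0.0814), TIMP2 (0.199) and LTBP3 (0.066). The ITGAX call in HCT116 was lost with DESeq2 (adjusted p = 0.0874), and by edgeR with DESeq2 size factors (0.052) or no filter (0.0632). In LoVo, LAMA5, ITGB8, TNS3 and LRP1 lost theirs without control 2 or 3 or 2-MiCit 1, 2 or 4 (adjusted p up to 0.153, 0.0801, 0.102 and 0.102), and HSPG2 also without 2-MiCit 3 (up to 0.142). In HCT116 the call was lost for ITGAX without control 1, 2 or 3 or 2-MiCit 1, 2 or 4 (adjusted p up to 0.166), for CD151 without control 3 or 2-MiCit 2 (0.0565), for LRP1 without control 2 or 2-MiCit 1 (0.0576) and for LTBP3 without control 2 or 2-MiCit 1 or 3 (0.0704). In HT29 it was lost for TNS3 without control 1 or 3 or 2-MiCit 4 (adjusted p up to 0.0672) and for ANXA2 without control 1, 2 or 3 or 2-MiCit 3 or 4 (0.108). In SKCO1 it was lost for ITGB5 without any library but 2-MiCit 3 (adjusted p up to 0.141) and for PARVA without control 1, 2 or 3 or 2-MiCit 1 or 2 (0.0859). There it was lost also for TNS3 without control 1, 2 or 4 or 2-MiCit 1, 2 or 4 (adjusted p up to 0.103) and for MMP7 without control 1, 2 or 3 or 2-MiCit 1 or 4 (0.119). In SW1417 it was lost for TGFB3 without control 1, 2 or 3 or 2-MiCit 2 or 3 (adjusted p up to 0.102).

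For the list genes, a difference in the 2-MiCit effect between lines was tested within each table by the treatment-by-line terms of 1 edgeR fit. It differed for 27 of 91 list genes among HCT116, DLD1, LoVo and SW948 (18% of 15800 genes did) and for 12 of 87 among HT29, SKCO1 and SW1417 (5.49% of 16090). With the replicate number within each line as a block, 22 of 91 differed in the first table (10.4% of all genes) and 23 of 87 in the last (9.73%). Only in HCT116, however, did libraries of every number deviate together with r above 0.1. Without the block, for example, COL17A1 (adjusted p = 0.00485) and ITGB8 (0.000296) differed in the first table, and FLNA (0.00982) and THBS1 (0.0196) in the last. The difference between lines was not tested for the 9 chosen genes, whose opposite directions in HCT116 and in SKCO1 or SW1417 are therefore descriptions.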

How the data were processed

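RNA was measured by sequencing in 56 libraries of 7 human colorectal cancer lines, 4 with 10 mM 2-MiCit and 4 with water in each. The authors deposited raw counts per gene in 2 tables, 1 for HCT116, DLD1, LoVo and SW948 (16485 genes) and 1 for HT29, SKCO1 and SW1417 (16454 genes). The submitters' processing notes name Salmon 1.5.0, Trimmomatic 0.39, bcl2fastq 2.20.0, DESeq2 and the GRCh38.p13 build. Libraries were made with a stranded mRNA kit, per the labels' protocols. The deposited counts are whole numbers, and Salmon shares reads between similar transcripts. The authors' normalized tables were not used here.

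The 9 members, the 9 lists and the marker lists were chosen with earlier results of these data known. Symbols come from a reference list of gene names, or from GENCODE 29 (GRCh38) where that list had none, and 1103 and 1126 identifiers had no symbol. Coordinates and lengths come from GENCODE 29, in which 1156 and 1186 identifiers had no match. Each line was fitted alone with edgeR 4.0.16 in R 4.3.3: filterByExpr, TMM scaling, robust quasi-likelihood F test, two-sided, Benjamini-Hochberg adjustment over all genes tested in the line, called below 0.05. Levels are CPM with TMM factors over a table, and SE comes from the fit. Library totals ran from 13.8 to 45.4 M counts, and 0 pairs of libraries were identical. Named list genes were, per list, up to 3 called in the most lines, ties by the smallest p, and some that this rule picks are not reported here. Alternatives were DESeq2 1.42.0, its size factors, no filter, 1 fit per table, leaving out each library, and the replicate number as a block. In HCT116, libraries of the same number deviated together (r 0.11 to 0.36 over 13834 genes, above 0.1 for all 4 numbers), so the numbers pair them there. In HT29 r was 0.05 to 0.14, above 0 for all 4 numbers but not above 0.1 for all. There 3 of 4 controls were closest to their own number. In the remaining lines the lowest r was below 0.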

Additional observations from a re-analysis of the deposited data

Results flagged for a closer look

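Over 126 groups of 4 libraries (9 genes, 14 groups), 7 held a library whose gap to its nearest neighbour exceeded Dixon's 95% critical share of the group's range, and chance flags about 1 in 20 groups (5%). For LAMB3 these were the HT29 2-MiCit library at 218.9 CPM (the others 262.3 to 269.5), the SW1417 control at 75.2 CPM (78.33 to 78.73) and the SW1417 2-MiCit library at 78.64 CPM (76.39 to 76.77). For ITGA6 they were the HT29 2-MiCit library at 341.5 CPM (358.8 to 361.8) and the SKCO1 2-MiCit library at 397.8 CPM (368.1 to 372.5). An ITGA2 control of SW948 stood at 33.01 CPM (36.81 to 37.47), and an ITGB1 control of DLD1, the library that stood apart, at 324.8 CPM (434.1 to 450.9).

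Some members were called higher in 1 line with all 4 treated libraries above control, and called lower in another with all 4 below. The differences were not tested. How many of all genes do the same was not counted, so nothing is read from the number of members. Lines without overlap but without a call, such as LoVo for ITGA3, are left out here. LAMA3 was above in HCT116 (log2 change 0.8889) and below in SKCO1 and SW1417, as was PLAU (0.9957). ITGA2 was above in HT29 (0.3295) and below in SW1417. ITGA3 was above in HCT116 (0.1654) and below in SKCO1, and ITGB1 was above in HCT116 (0.1971) and below in HT29, SKCO1 and SW1417.

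The effect of 2-MiCit on named list genes differed between the lines of the first table by the edgeR interaction test for LAMA5 (adjusted p = 0.0061), ITGB5 (5.16e-06), ITGB8 (0.000296), COL17A1 (0.00485), BCAM (0.00791), TNS3 (0.00723), PARVA (0.000121), LRP1 (0.0182), THBS1 (4.09e-06), HSPG2 (0.0025), TIMP2 (2.32e-05), MMP14 (0.0178) and LTBP4 (0.0148). Between the lines of the last table it differed for TNS3 (0.00956), FLNA (0.00982), THBS1 (0.0196), COL18A1 (0.00362), MMP7 (6.76e-05) and MMP14 (0.0125).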

How the results depend on the processing

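Of 793 alternative values of the members' fold changes, 792 moved by less than the spread and 0 changed sign among called values. PLAU in HT29 gave 0.20 without control 4. Of the 21 member calls, 12 held without any 1 library and 10 under every alternative. With 1 fit per table, which pools the spread of the lines, the calls of ITGA3 and ITGB1 in HCT116 and of ITGB1 and PLAU in SKCO1 and SW1417 were lost, leaving 3 members lower in SKCO1 and 2 in SW1417. DESeq2 called 2 members higher in LoVo. Of 1937 alternatives for the named list genes, 95 lost and 37 gained a call and 0 reversed. Of 126 rescaled control levels, 11 moved by over 1 SD. The median correlation of members moved to 0.58 and 0.365 as given above, chosen after seeing the data.

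The replicate block, in the lines whose libraries share only a number, gave 0 members higher in DLD1 and LoVo and 2 in HT29, 0 genes higher in DLD1, 1150 higher and 1034 lower in HT29, 11 list genes higher and 6 lower in HT29 and 4 higher in SW1417, and 23 list genes differing between lines in the last table, as given above. In HCT116 it gave 9 list genes lower. With DESeq2, all genes called higher and lower were 324 and 150 in DLD1 and 458 and 477 in LoVo, and 730 were lower in HT29. List genes were 8 lower in HCT116, 3 higher in DLD1, 14 higher and 1 lower in LoVo and 6 lower in HT29. With 1 fit per table, all genes called higher and lower were 733 and 619 in DLD1 and 1221 and 1270 in HT29. They were 626 and 1010 in SKCO1, then 211 and 227 in SW1417, with 120 higher in LoVo and 2 in SW948. List genes were then 2 lower in HCT116, 9 higher in DLD1, 3 higher in LoVo and 10 higher and 8 lower in HT29. SKCO1 had 2 higher and 13 lower, SW1417 1 higher. The cause of these differences was not tested.

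With 1 library left out, members called higher ran from 0 to 1 in DLD1, 0 to 2 in LoVo, 0 to 2 in HT29 and 0 to 1 in SKCO1, and members lower from 1 to 3 in HT29. List genes ran from 4 to 8 lower in HCT116, 0 to 1 higher in DLD1, 1 to 15 higher and 0 to 1 lower in LoVo, 1 to 4 lower in HT29, 4 to 9 higher in SKCO1 and 0 to 3 higher in SW1417. All genes ran from 1 to 163 higher and 0 to 20 lower in DLD1, 32 to 528 and 4 to 540 in LoVo, 0 to 1 and 0 to 2 in SW948, 299 to 594 and 153 to 520 in HT29, and 187 to 460 and 303 to 670 in SW1417.

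Depth limits PLAU in SW948 and HT29 and ITGB6 in HCT116, with at most 18 counts a library.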
